A study of Mus musculus with 9 samples.

Results

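The loci described here are the 200 most counted new loci of mouse colon RNA read on an Oxford Nanopore instrument. They are rows that the authors' table lists as new genes, meaning that reads were assembled there but no annotated gene was assigned. The 200 with the largest sum of counts over the 9 mice were taken from 4949 new loci, in a table of 27719 rows with counts. Total RNA came from the colon of C57BL/6J mice, with 3 mice in each of 3 groups and 1 library per mouse. The control mice drank no dextran sodium sulfate (DSS). The DSS mice drank 2.5% DSS for 7 days, which injures the colon epithelium. The DSS + EA mice drank the same DSS and also received electroacupuncture (EA), a weak current passed through needles, at the ST36 points of the hind limbs. Daily EA sessions of 30 minutes, with a current of 0.2 mA at 2 Hz, were given on 5 days after 5 days of modeling. Electroacupuncture was given only on top of DSS, and the labels and methods used here name no sham group among these samples.

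A nanopore reads a cDNA copy of a transcript from end to end, so transcription units that an annotation lacks can be assembled directly from the reads. Such units are a mixed class, which can hold non-coding RNAs, extensions of known genes and products of rearranged or repeated DNA. The colon also holds many plasma cells, which make large amounts of immunoglobulin mRNA, and each B cell clone joins its own choice of variable segments to a constant segment. The new loci carry only an identifier with a running number (ONT.1961, for example). No gene name, protein, position or sequence is paired with the identifiers in the sources used here, so no sequence is shown and no locus is given a function.

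The 200 loci held 1097653 counts, 83.5% of the counts on all new loci and 3.70% of all counts. Their sums ran from 66903 down to 469, with a median of 1240. The counts were concentrated: the 10 most counted loci held 45.1% of the 200 loci's counts, and the 13 most counted held 54.4%. The limit at the 200th place cut through loci of like size. Just inside it, ONT.17038 had 470 counts and ONT.12248 had 469, and just outside it ONT.8787 had 468 and ONT.11698 had 458. The sum counts every group, so a locus high in any one group had a better chance of being chosen.

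The running numbers gave a rough position. A set of 258 long non-coding RNA loci of the same table carry both an ONT number and an Ensembl identifier with a known position in GENCODE M21 (mm10). In the order of their numbers, 0 of the 257 neighbouring pairs broke an order by chromosome, then + strand before - strand, then start. On that order, 158 of the 200 loci lay between 2 such named genes of 1 chromosome, and 138 of these also between genes of 1 strand, 60 on + and 78 on -. For the other 42 loci the chromosome stayed unsettled. No new locus has a known position here, so the order could not be checked on the new loci themselves. The intervals were wide, with a median of 20.2 Mb and a range from 0.173 to 108 Mb, so they do not identify a gene. Chromosome 6 received the most, 26 loci, followed by chromosome 2 with 16 and chromosomes 7 and 11 with 14 each.

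Levels of loci are given as counts or as CPM, a scaling that divides counts by library totals adjusted with edgeR's TMM method. The library totals lay between 2627695 and 4235576 counts, and a floor of 3 counts stood for 0.708 to 1.14 CPM before that adjustment. PCR copies were not told apart from separate molecules, so floors cover counting error only. Marker genes moved strongly with the groups, and fewer cells of a type cannot be told apart from less RNA per cell in such tissue. The summed level of 10 neutrophil markers was 22.6 to 159 CPM in control, 4544 to 27420 CPM in DSS and 1199 to 1592 CPM in DSS + EA mice. The 8 colon epithelium markers were present in every mouse, at 12713 to 29457 CPM in control, 2258 to 10489 CPM in DSS and 10512 to 17478 CPM in DSS + EA mice. Among the libraries that stood apart, DSS + EA 2 and DSS + EA 3 held 42106 and 16698 CPM of pancreas acinar markers, against 609 CPM in DSS + EA 1 and at most 963 CPM in the other mice. The part of these cell types in the results on the new loci was not tested.

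As a group, the 200 loci took more of the RNA in DSS mice and less in DSS + EA mice. In control mice 1 to 3 the share of all counts on these loci was 4.07%, 3.89% and 3.03%. In the DSS mice it was 4.61%, 4.80% and 4.26%, and in the DSS + EA mice 2.71%, 2.72% and 2.65%. The 3 groups did not overlap. The mean was 3.66% ± 0.557 (SD, n = 3) in control, 4.56% ± 0.275 in DSS and 2.69% ± 0.0400 in DSS + EA mice. In each of the 3 comparisons the two-sided exact permutation p was 0.1, the smallest that 3 mice against 3 can give. The 13 most counted loci held 2.24% ± 0.265 of the counts in control and 2.22% ± 0.200 in DSS mice, which overlapped (difference -0.0224 percentage points, exact permutation p = 0.9). The limit at 13 followed no stated rule, and like shares do not mean that each of the 13 stayed level. ONT.4198 and ONT.13667, both among them, were lower in DSS mice, while 8 of the 10 most counted loci had a higher fitted level. The other 187 loci held 1.42% ± 0.326 in control and 2.34% ± 0.273 in DSS mice, again without overlap. In DSS + EA mice the 13 loci fell to 1.53% ± 0.0369, below every other mouse, while the other 187 held 1.16% ± 0.0138, within the range of the control mice.

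**Figure D1:**
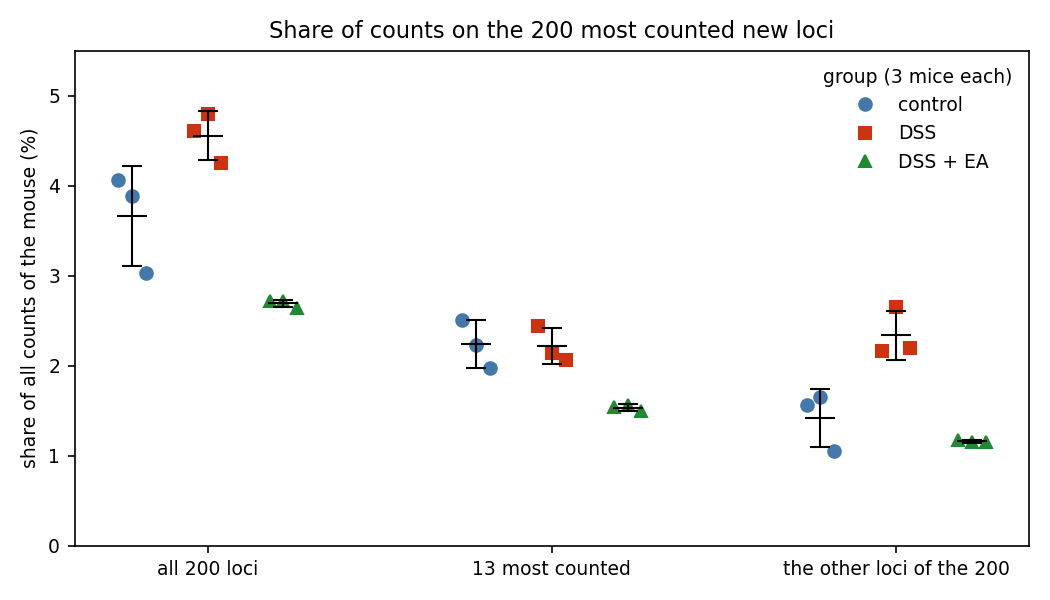
Share of all counts of each mouse (%, vertical axis) on all 200 loci, on the 13 most counted and on the other 187, in control, DSS and DSS + EA mice. Each point is a mouse, and the bars show the mean and SD of 3 mice. All 200 loci held 2.65% to 2.72% of the counts in DSS + EA mice, below every mouse of the other groups, and the 13 most counted held like shares in control and DSS mice.

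The 10 most counted loci were read in every mouse at high levels, and most of them changed little between control and DSS mice. ONT.4198, the most counted, had 2754, 4574 and 3836 CPM in control mice. It had 2166, 1893 and 354 CPM in DSS mice and 1724, 1165 and 2199 CPM in DSS + EA mice. All 6 mice given DSS lay below the 3 control mice, and DSS 3 lay far below the rest. The log2 fold change of ONT.4198 in DSS against control was -1.34 ± 0.54 (SE), with an edgeR adjusted p of 0.0738. ONT.10196, the second, had 3023, 2308 and 1685 CPM in control, 2726, 2593 and 2734 CPM in DSS and 1496, 1292 and 1028 CPM in DSS + EA mice. The DSS + EA mice thus lay below all others. ONT.696 had the same order, with 698 to 953 CPM in DSS + EA mice against 998 to 1672 CPM in control and 1587 to 2253 CPM in DSS mice.

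In DSS against control, 8 of these 10 loci had a higher and 2 a lower fitted level. Of the 10, 0 passed an adjusted p of 0.05 in edgeR, with 2 at an unadjusted p under 0.05, where 49.8% of all rows tested were, and 1 passing in DESeq2. In DSS + EA against DSS, 9 of the 10 had a lower fitted level and 6 passed an adjusted p of 0.05, where 35.5% of all rows tested did and 18.3% were lower. ONT.696 fell by 1.19 ± 0.25 on the log2 scale (edgeR adjusted p = 0.00620), ONT.10196 fell by 1.08 ± 0.24 (edgeR adjusted p = 0.00794) and ONT.13842 fell by 0.96 ± 0.20 (edgeR adjusted p = 0.00644). The falls of ONT.13327, ONT.6737 and ONT.17734 were smaller, 0.60, 0.60 and 0.51 on the log2 scale. Leaving out any of 8 of the 9 mice ended the call of each of these last 3 loci. The exceptions, whose omission kept the call, were DSS + EA 2 for ONT.6737, DSS 1 for ONT.17734 and DSS 2 for ONT.13327. In the fit without DSS + EA 2 and DSS + EA 3, the mice with pancreas markers, the log2 fold change was -1.41 for ONT.696, -0.83 for ONT.10196 and -1.03 for ONT.13842, and all 6 calls were lost, with the lone DSS + EA mouse assumed to vary like the mice of the other groups. ONT.4198 (0.21), ONT.5419 (-0.25), ONT.13234 (-0.41) and ONT.2357 (-0.08) did not pass in DSS + EA against DSS.

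**Figure D2:**
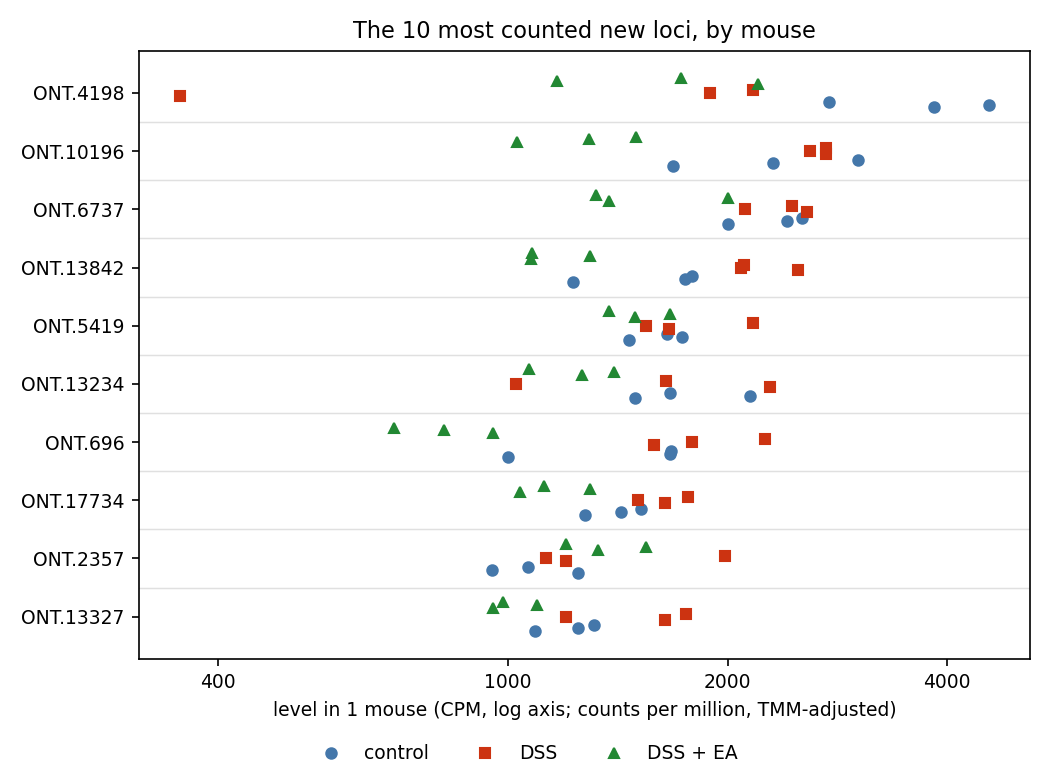
Level of the 10 most counted new loci in each mouse (CPM, log axis), 1 row per locus and 1 point per mouse, for control, DSS and DSS + EA mice. The DSS + EA mice lie lowest for ONT.10196 and ONT.696, and the 3 control mice lie highest for ONT.4198.

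Across all 200 loci the change in DSS was mostly upward. A DEG here is a locus whose log2 fold change lies above 2.5 or below -2.5 with P under 0.01 before adjustment. These thresholds are those of the study's methods, but P comes from edgeR here, where the study used DESeq2. Of the 200 loci, 195 could be tested. The other 5 had too few libraries with counts for edgeR's filter, which keeps a row counted in enough mice. In DSS against control, 46 loci were DEGs with higher levels and 4 with lower levels, 50 in all. Over all rows tested, 10.2% were DEGs, 6.62% higher and 3.57% lower. At an edgeR adjusted p under 0.05, 95 loci were higher and 15 lower, against a background of 40.9%, made of 21.5% higher and 19.5% lower. The median log2 fold change of the tested loci was 0.83, and it was 0.02 over all 12566 rows tested. Markers of 4 cell types rose in the same comparison, 9 of 9 of neutrophils, 4 of 4 of red blood cells, 5 of 5 of fibroblasts and 7 of 8 of monocytes and macrophages, and their part in the rise of the loci was not tested. All 3 DSS mice lay above all 6 other mice at 82 of the 195 loci, which was so for 18.5% of all rows tested. All 3 control mice lay below all 6 others at 54 loci (background 9.54%) and above them at 7 (background 7.94%). By place in the list, the median log2 fold change was 0.31 for places 1 to 50, 0.70 for places 51 to 100, 1.68 for places 101 to 150 and 1.32 for places 151 to 200. The order uses sums over all groups, so loci with few counts elsewhere enter through the group where they are high. Of the 4749 new loci outside the 200, 866 passed the filter, and 36.8% of these were DEGs. Of the long non-coding RNA loci 324 were tested and 24.1% were DEGs, and of 11181 known Ensembl genes tested 7.45% were. A row with few counts passes the filter mainly through the group where it is high, so these shares are not like for like.

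**Figure D3:**
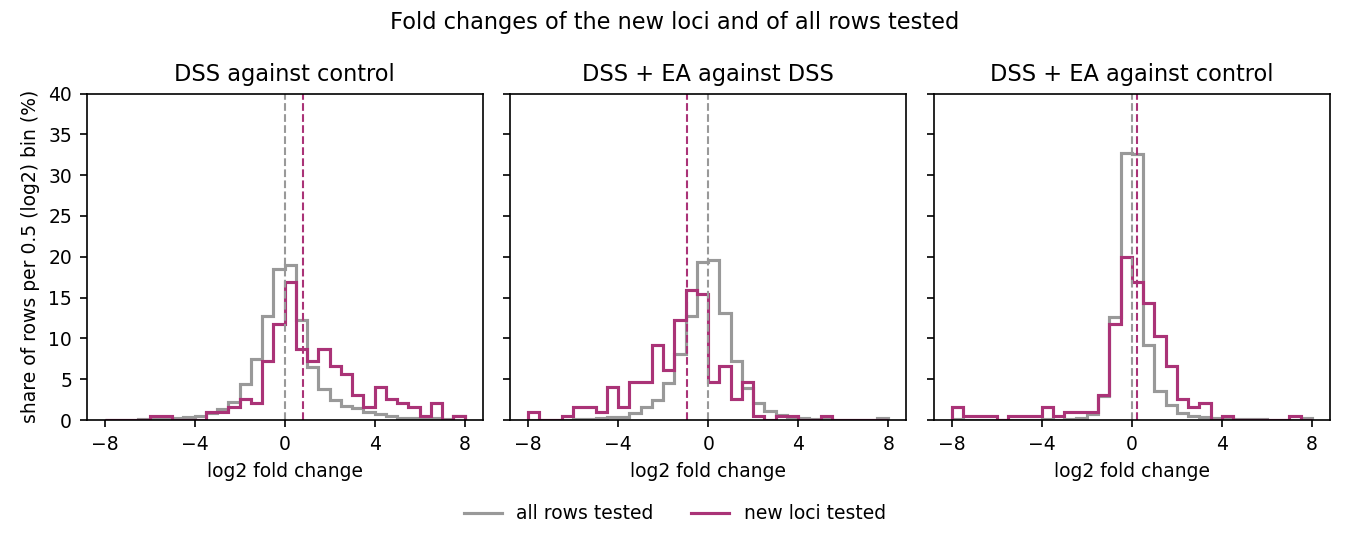
Share of rows (%, vertical axis) by log2 fold change in bins of 0.5, for the tested new loci among the 200 and for all rows tested, in the 3 comparisons; changes beyond 8 stand in the end bins, and dashed lines mark the medians. The new loci lie to the right of all rows in DSS against control (median 0.83) and to the left in DSS + EA against DSS (median -0.96).

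The 3 loci with the smallest P in DSS against control had 23 to 56 counts in control mice and 687 to 4442 in DSS mice. ONT.12074 had 36, 28 and 23 counts in control mice, 687, 1144 and 871 counts in DSS mice and 34, 40 and 44 counts in DSS + EA mice. Its mean level was 9.09 ± 0.25 CPM in control, 247 ± 25 CPM in DSS and 13.1 ± 2.4 CPM in DSS + EA mice (SD, n = 3). The groups of DSS and control mice were far apart, and the fitted level was 27.1-fold higher (log2 fold change 4.76 ± 0.21, edgeR adjusted p = 5.27e-06). By its number it starts on the - strand of chromosome 4, between Gm830 at 95464724 and Rap1gapos at 137696979. ONT.9608 had the highest DSS level of these loci, with 24, 33 and 30 counts in control mice and 3382, 4427 and 4442 counts in DSS mice. It was 121-fold higher in DSS than in control mice (log2 fold change 6.92 ± 0.40, edgeR adjusted p = 9.36e-06). By its number it lies on the - strand of chromosome 2 between Stamos at 14070332 and AA543186 at 25327450. ONT.9092 rose from 16.9 ± 2.3 CPM in control to 334 ± 39 CPM in DSS mice, 19.8-fold. Its number places it on the + strand of chromosome 2 between Chrna1os at 73584850 and A330069E16Rik at 91237146. ONT.9666 had 0 counts in all 3 control mice and 61, 235 and 222 counts in DSS mice. Against a floor of 3 counts per library, its level was at least 48.1-fold higher in DSS than in control mice.

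Few of the 200 loci were lower in DSS mice. ONT.1961 had 367, 215 and 155 counts in control mice, 40, 57 and 38 in DSS mice and 164, 108 and 149 in DSS + EA mice. The DSS mice lay close together, at 12.4 ± 0.50 CPM, 6.03-fold below the control mice (log2 fold change -2.59 ± 0.22, edgeR adjusted p = 5.05e-05). ONT.15527 had 148, 118 and 126 counts in control and only 6, 1 and 5 in DSS mice, with 57, 47 and 32 in DSS + EA mice, which lay between. Its log2 fold change in DSS against control was -5.15 ± 0.49, and -4.53 without DSS 2. ONT.5559 had 236, 362 and 72 counts in control, 1, 12 and 3 in DSS and 23, 8 and 16 in DSS + EA mice, with a log2 fold change of -5.59 ± 0.70, which was -4.97 without control 2 and -6.68 without DSS 2. In the same comparison 6 of 6 goblet cell markers fell, with a median log2 fold change of -3.24. So did 6 of 8 markers of colon epithelium (-2.10) and 5 of 6 of smooth muscle (-0.98). Lower too were 1 of 4 markers of B and plasma cells and 2 of 11 of pancreas acinar cells. Their part in the falls of the loci was not tested.

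In DSS + EA against DSS, which share the DSS mice with the comparison above, most loci that changed were lower. DEGs numbered 3 higher and 29 lower, 32 in all. Over all rows tested, 6.41% were DEGs, 2.91% higher and 3.50% lower. At an edgeR adjusted p under 0.05, 17 loci were higher and 95 lower, against a background of 35.5%, made of 17.2% higher and 18.3% lower. The median log2 fold change was -0.96, against -0.02 over all rows tested. Without DSS + EA 2 and DSS + EA 3, the mice with pancreas markers, 29 loci were DEGs (3 higher, 26 lower) and 41 passed an adjusted p of 0.05, with a median log2 fold change of -1.10. That fit has 1 DSS + EA mouse, which is assumed to vary like the mice of the other groups. ONT.12074 fell by 4.24 ± 0.21 on the log2 scale, 18.9-fold (edgeR adjusted p = 2.24e-05). ONT.1758 had 185, 318 and 300 counts in DSS and 10, 5 and 12 in DSS + EA mice, a fall of 4.64 ± 0.33. ONT.8539 had 906, 1324 and 1084 counts in DSS and 135, 83 and 108 in DSS + EA mice, a fall of 3.11 ± 0.23. The 3 groups of mice did not overlap at ONT.8539, whose control mice had 67, 85 and 57 counts. Markers of several cell types fell in the same comparison: 7 of 9 neutrophil markers (median log2 fold change -4.12), 4 of 4 of red blood cells (-3.83), 4 of 5 of fibroblasts (-1.52) and 4 of 8 of monocytes and macrophages (-1.04). Their part in the falls of the loci was not tested.

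The loci that were higher in DSS + EA than in DSS mice differed in where the control mice lay. ONT.15527 was highest in control mice, low in DSS and intermediate in DSS + EA mice. It was 12.8-fold higher in DSS + EA than in DSS mice (log2 fold change 3.68 ± 0.50, edgeR adjusted p = 0.000856), with 3.06 without DSS 2. ONT.2166, in contrast, was highest in DSS + EA mice. It had 13, 38 and 71 counts in control mice, 5, 9 and 19 in DSS mice and 426, 247 and 425 in DSS + EA mice. The DSS + EA mice lay above all others, and the level was 37.9-fold higher than in DSS mice (log2 fold change 5.25 ± 0.72, edgeR adjusted p = 0.000945). Without DSS 3 the log2 fold change was 6.02. The level of ONT.2166 was 130, 92.3 and 135 CPM in DSS + EA mice 1 to 3, where the pancreas acinar markers summed to 609, 42106 and 16698 CPM, against 42.8 to 104 CPM in DSS mice. Their part in this difference was not tested. Its number places it on the + strand of chromosome 11, with a start between Etaa1os at 17953970 and Gm16062 at 59810080. ONT.7497 had 455, 370 and 422 counts in control, 153, 51 and 13 in DSS and 681, 461 and 620 in DSS + EA mice, and rose by 3.17 ± 0.68 on the log2 scale from DSS to DSS + EA mice. DSS 1 lay well above the other DSS mice, and without it the log2 fold change was 4.65. Its interval is among the narrow ones, on the - strand of chromosome 17 between Gm19412 at 33919279 and 1110038B12Rik at 34950238. The call of ONT.7497 was lost without DSS + EA 2 and DSS + EA 3, at a log2 fold change of 3.29, and without control 2 and DSS 2, at 2.82. All 3 DSS + EA mice lay above all 6 other mice at 10 of the 195 loci, against 5.24% of all rows tested.

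**Figure D4:**
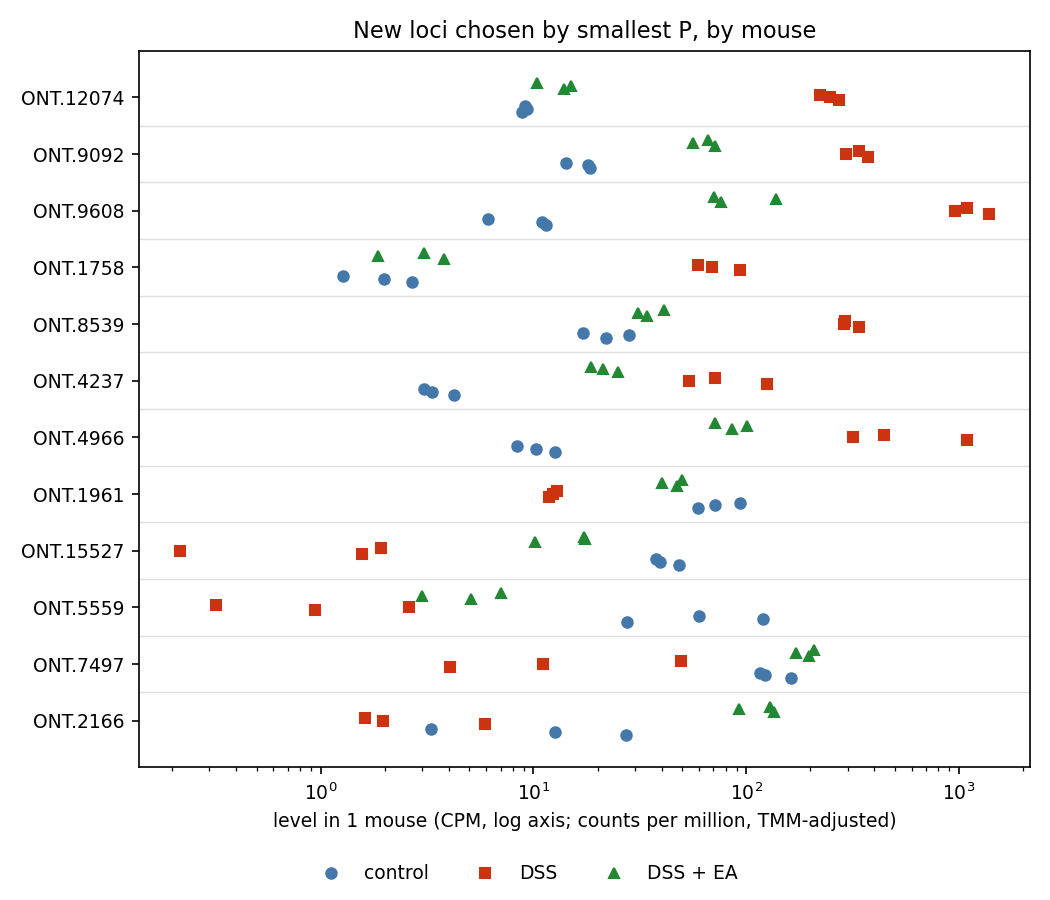
Level in each mouse (CPM, log axis) of 12 loci chosen by their P, 1 point per mouse, for control, DSS and DSS + EA mice. The upper 7 loci are highest in the 3 DSS mice, ONT.1961, ONT.15527 and ONT.5559 are lowest there, and ONT.2166 is highest in the 3 DSS + EA mice.

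At some loci DSS + EA mice stayed above or below the control level. In DSS + EA against control, DEGs numbered 9 higher and 4 lower, 13 in all. Over all rows tested, 2.08% were DEGs, 1.74% higher and 0.334% lower. At an edgeR adjusted p under 0.05, 27 loci were higher and 4 lower, against a background of 3.64%, made of 3.00% higher and 0.637% lower. The split of the DEGs turned round in 3 alternatives, with 8 higher and 10 lower without control 3, 9 and 13 without a filter on low counts, and 3 and 4 in a test against the fold minimum (glmTreat). In this comparison 5 of 9 neutrophil markers and 9 of 11 pancreas acinar markers were higher, and their part in it was not tested. ONT.9608 had 232, 370 and 240 counts in DSS + EA mice against 24 to 33 in control mice (log2 fold change 3.33 ± 0.35, edgeR adjusted p = 0.00205). ONT.4966 had 33, 31 and 33 counts in control, 1379, 1462 and 3501 in DSS and 233, 270 and 270 in DSS + EA mice. ONT.4237 had 12, 10 and 11 counts in control, 221, 249 and 402 in DSS and 61, 57 and 79 in DSS + EA mice. At each of these 3 loci the DSS + EA mice lay between the other groups without overlap. Their log2 fold changes over control were 3.04 ± 0.45 for ONT.4966 and 2.62 ± 0.36 for ONT.4237, and the call of ONT.4966 was lost without control 1 (2.90). ONT.5559, already described, had a log2 fold change of -3.76 ± 0.61 in DSS + EA against control (edgeR adjusted p = 0.0104). Its call was lost without DSS + EA 3 (-3.80), and its log2 fold change was -3.10 without control 2. Without both control 2 and DSS 2 the calls of ONT.4966 (3.00), ONT.4237 (2.55) and ONT.5559 (-3.15) were lost. Without both DSS + EA 2 and DSS + EA 3 their log2 fold changes were 2.75, 2.38 and -3.32. That fit holds 1 DSS + EA mouse, so only the fold changes are given, and it does not show that the calls held. The adjusted counts in this comparison depended on single mice: 31 loci passed with all mice, 5 without control 1, 11 without control 2, 19 without control 3, 16 without DSS + EA 1, 17 without DSS + EA 2 and 9 without DSS + EA 3. Without both control 2 and DSS 2 the count was 3, and without both DSS + EA 2 and DSS + EA 3 it was 2.

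Of the 200 loci, 37 fell into 14 runs whose numbers lay at most 3 apart. In DSS against control every locus passed an adjusted p of 0.05 in 1 run, some but not all did in 8 and none did in 5, and 0 runs held calls in opposite directions. Loci that were not tested count here as not passing. The pairs below were chosen after their values were seen. ONT.4468 and ONT.4469 were both higher in DSS than in control mice, though by unlike amounts. Their log2 fold changes were 2.57 ± 0.33 and 5.15 ± 0.41. ONT.1579 and ONT.1580 were both higher in DSS + EA than in DSS mice, by 1.56 ± 0.37 and 1.65 ± 0.56 on the log2 scale, and the call of ONT.1580 was lost without control 1, DSS 1, DSS 3, DSS + EA 1 or DSS + EA 3 (1.31 to 1.69). Other pairs differed. ONT.5311 and ONT.5312 are consecutive numbers, placed on chromosome 14. ONT.5311 had 1235, 777 and 1184 counts in control, 2281, 688 and 386 in DSS and 1715, 2263 and 2367 in DSS + EA mice, with a log2 fold change of -0.03 ± 0.59 in DSS against control. ONT.5312 had 131, 122 and 89 counts in control, 2443, 4632 and 1903 in DSS and 432, 299 and 773 in DSS + EA mice, 22.1-fold higher in DSS than in control mice (edgeR adjusted p = 3.33e-05). ONT.696, one of the 10 most counted, had a log2 fold change of 0.37 ± 0.25 in DSS against control, while ONT.697 had 138 to 235 counts in control and 576 to 2259 in DSS mice, a rise of 2.71 ± 0.46 (2.01 without DSS 1). ONT.10531 had a log2 fold change of 0.25 ± 0.22. ONT.10532 went from 3, 1 and 2 counts in control to 99, 502 and 152 in DSS mice. Its log2 fold change was 6.57 ± 0.67, and 5.91 without DSS 2. The control counts of ONT.10532 lay at or below the floor of 3, so the size of its rise is uncertain. Over the alternative fits its log2 fold change ran from 5.63 to 6.86. ONT.14530 rose from 5, 2 and 2 counts in control to 211, 329 and 160 in DSS mice, and ONT.14532 had 144, 173 and 132 against 194, 112 and 15. The difference within these pairs was not itself tested.

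By their numbers, 16 loci were placed in intervals that hold at least 50 annotated immunoglobulin genes. A locus whose interval holds fewer such genes was not included. Of the 16 loci, 11 had at least 90% of their counts in 3 of the 9 mice. No such count for other loci is given here. The interval of each of the 16 holds at least 50 annotated immunoglobulin genes. The interval of 7 of them, ONT.4198 included, runs from 5033406O09Rik on chromosome 12 to 1110046J04Rik on chromosome 13. It holds the heavy chain genes, which lie between 113254830 and 116010093 on chromosome 12. The chromosome of these 7 loci is thus unsettled, and any of them may lie far from the heavy chain genes. Another 9 are placed in the intervals on chromosome 6 that hold the kappa light chain genes, 3 on the + strand and 6 on the - strand. Any of these 9 may also lie apart from the kappa genes. The 6 loci of the kappa interval on the - strand were ONT.14138 to ONT.14145. Together they had 59, 6965 and 22 counts in control mice, 13, 5417 and 12 in DSS mice and 16, 29 and 18 in DSS + EA mice. Control 2 and DSS 2 thus held 98.7% of their counts, and no other mouse had more than 59. Among them, ONT.14140 had 2324 counts in control 2 and 2520 in DSS 2, with at most 14 in any other mouse. On the + strand ONT.13665 had 2869 counts in control 2, 275 in DSS 2 and at most 2 elsewhere, and ONT.13666 had 30 in control 2, 902 in DSS 2 and at most 1 elsewhere. The third locus there, ONT.13667, was read in every mouse, with 10856, 4785 and 3725 counts in control, 1766, 3694 and 732 in DSS and 3420, 1786 and 2232 in DSS + EA mice. It was 3.61-fold lower in DSS than in control mice (log2 fold change -1.85 ± 0.44, edgeR adjusted p = 0.00787).

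In the heavy chain interval, 3 of the 7 loci came from few mice. ONT.4200, ONT.4202 and ONT.4204 together had 2182, 2530 and 26 counts in control mice, 2, 1320 and 2 in DSS mice and 6, 4 and 14 in DSS + EA mice. Control 1, control 2 and DSS 2 held nearly all of them. The other 4 loci of this interval, ONT.4198, ONT.4237, ONT.4263 and ONT.4274, were read in every mouse. ONT.4237 was highest in DSS mice, as given above. ONT.4263 had 132, 115 and 68 counts in control, 53, 35 and 17 in DSS and 51, 83 and 153 in DSS + EA mice. ONT.4274 is among the loci with the least evidence of a difference between groups. The 3 known kappa variable segments in the table followed the same mice at low counts, with 135 in control 2, 32 in DSS 2, 1 in control 1 and 0 in the other 6. Iglc2, a constant segment of the lambda light chain, was read in every mouse, with 1254, 2057 and 3846 counts in control, 341, 3389 and 102 in DSS and 1503, 438 and 597 in DSS + EA mice. The 16 loci held 0.645%, 0.964% and 0.530% of all counts in control, 0.278%, 0.489% and 0.0722% in DSS and 0.285%, 0.180% and 0.289% in DSS + EA mice. Control and DSS mice did not overlap (exact permutation p = 0.1), and DSS and DSS + EA mice did (exact permutation p = 1). The 5 B and plasma cell markers in the table summed to 1460 to 2788 CPM in control, 132 to 424 CPM in DSS and 404 to 763 CPM in DSS + EA mice. Without the 16 loci the remaining 184 held 2.95% of the counts in control, 4.28% in DSS and 2.44% in DSS + EA mice, and the DSS + EA mice then overlapped the control mice (exact permutation p = 0.2).

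**Figure D5:**
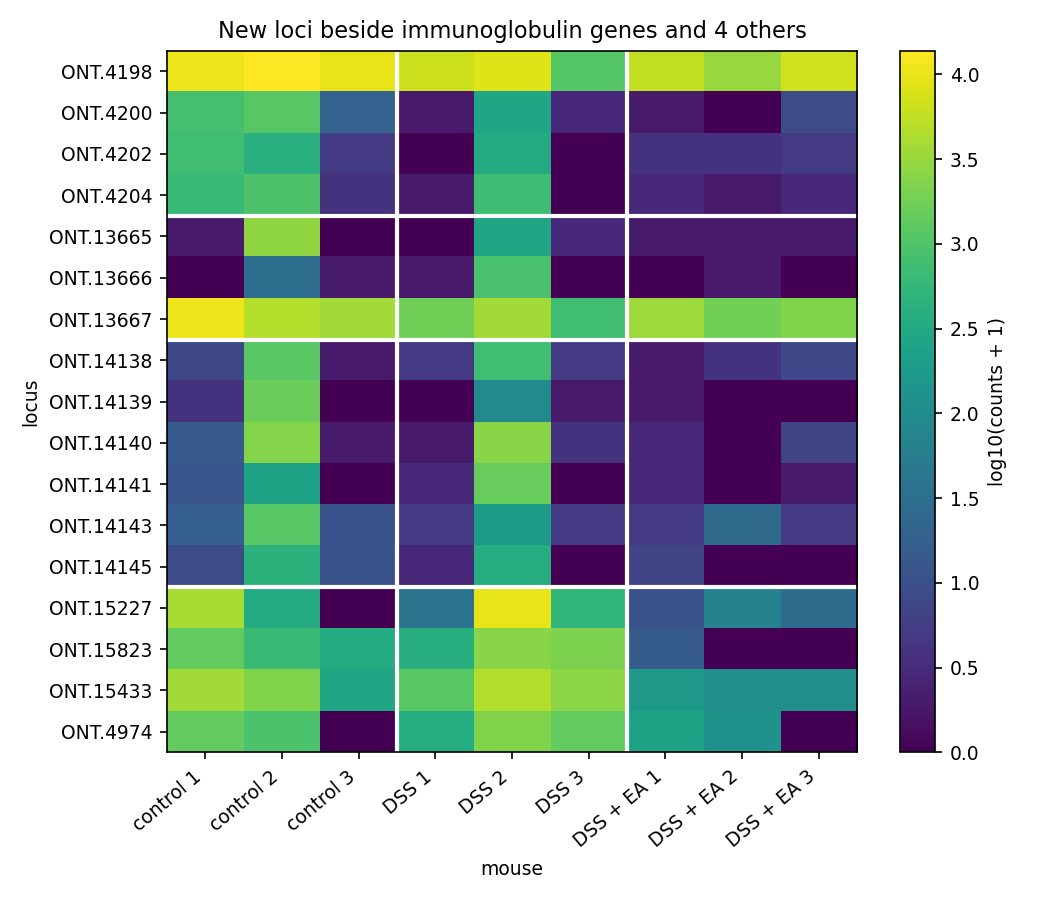
Counts of 17 loci in each of the 9 mice, as log10(counts + 1) by colour. Rows are, from the top, 4 loci of the heavy chain interval, 3 and 6 of the kappa intervals on the + and - strands, and 4 loci placed elsewhere; the 6 loci ONT.14138 to ONT.14145 are bright in control 2 and DSS 2 alone.

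Other loci also came from some mice only. At 22 loci a mouse had 0 counts while another had at least 100, and at 14 of these both lay in 1 group. Of the 22, 13 were outside the intervals with at least 50 immunoglobulin genes. ONT.15227 had 3959, 350 and 0 counts in control mice, 38, 9606 and 502 in DSS mice and 10, 67 and 28 in DSS + EA mice, so that DSS 2 alone held most of its counts. Its interval is on the - strand of chromosome 7 between 4930479H17Rik at 30347645 and 0610005C13Rik at 45567794. ONT.15562 had 367, 0 and 209 counts in control, 0, 0 and 233 in DSS and 41, 0 and 0 in DSS + EA mice. ONT.4974 had 1411, 935 and 0 counts in control, 359, 2284 and 1372 in DSS and 246, 130 and 0 in DSS + EA mice. The smallest edgeR adjusted p over the 3 comparisons was 0.0610 for ONT.15227, 0.372 for ONT.15562 and 0.156 for ONT.4974, all in DSS + EA against DSS. Within a group, 25 of the 200 loci differed over 10-fold between mice, with counts under 3 set to 3. Neither this count nor that of the 22 loci is given here over all rows. They do not show that such differences between mice are particular to these loci. The median SD of log2 CPM over mice was 0.32 in control, 0.53 in DSS and 0.28 in DSS + EA mice for the 195 loci tested, and 0.25, 0.45 and 0.27 for all rows tested.

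ONT.15823 and ONT.15433 were low in all 3 DSS + EA mice. ONT.15823 had 1368, 622 and 345 counts in control, 404, 2550 and 2137 in DSS and 15, 0 and 0 in DSS + EA mice. ONT.15433 had 3644, 2295 and 272 counts in control, 1165, 4517 and 2671 in DSS and 170, 114 and 108 in DSS + EA mice. At both loci every DSS + EA mouse lay below the other 6. The log2 fold change of ONT.15433 was -4.09 ± 0.71 in DSS + EA against DSS (edgeR adjusted p = 0.00265) and -3.80 ± 0.71 in DSS + EA against control (edgeR adjusted p = 0.0177). The latter call was lost without control 1, control 2 or any one of the DSS + EA mice, at log2 fold changes from -4.00 to -3.34. ONT.15823 passed in both comparisons (edgeR adjusted p = 0.000919 and 0.00784), and its call against control was lost in both fits that left out a pair of mice. In DSS against control neither locus passed the test, with log2 fold changes of 0.29 ± 0.63 for ONT.15433 and 0.98 ± 0.76 for ONT.15823. All 3 DSS + EA mice lay below all 6 others at 13 of the 195 loci, against 2.84% of all rows tested.

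The loci with the least evidence of a difference between groups were chosen by the largest of their smallest P over the 3 comparisons. A wide spread between mice also gives a large P. ONT.6316 had 147 to 321 counts in every mouse, ONT.4274 had 31 to 89 and ONT.5527 had 76 to 322. Their log2 fold changes in DSS against control were -0.12 ± 0.41, -0.11 ± 0.32 and 0.23 ± 0.57. With 3 mice a group, log2 changes near these standard errors were not detectable.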

How the data were processed

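The authors deposited raw read counts for each gene or new locus in 1 table, whole numbers with no scaling, from full-length cDNA of 9 mouse colons amplified for 14 PCR cycles. The submitters' processing notes name the build mm10; the aligner, the assembler of new loci, the counting tool and the use of strand are not given in the sources used here. Of 27733 lines, 14 hold no counts. Library totals were 2627695 to 4235576 counts. New loci were ranked by their summed counts. All rows were tested in 1 fit with edgeR 4.0.16 (TMM, filterByExpr by group, prior count 0.125, quasi-likelihood F test, group as the only term) in R 4.3.3, with Benjamini-Hochberg adjustment over the 12566 rows kept. Standard errors are those implied by the F statistic. Shares were compared by exact permutation tests. Positions are brackets from the order of locus numbers, read in GENCODE M21.

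The 200 loci, the marker lists and the tests were chosen with earlier results of these data known. Loci named are the 10 most counted, and the 3 of smallest P in each comparison and direction among DEGs at an adjusted p under 0.05 without overlap. Also named are those at the rank limit, those with at least 90% of counts in 1 library, and the 3 with the least evidence of a difference. The text says where others were added. ONT.14139, with 1608 of its counts in control 2, is among those of 1 library. Loci of runs, of immunoglobulin intervals and of single mice were chosen after their values were seen. The edgeR and DESeq2 p-values set a difference between groups against the spread between these mice. Permutation p-values rank the difference among all regroupings of the same mice. Same-numbered mice are different animals, and no label says that the numbers pair them. Alternatives were DESeq2 1.42.0, other scalings and filters, other list sizes and each mouse left out. Human samples were not analysed here.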

Additional observations from a re-analysis of the deposited data

How the results depend on the processing

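Higher loci outnumbered lower ones, or the reverse, as in the report in every alternative but the 3 named there for DSS + EA against control, and no difference in share and no named call changed sign. Testing against the fold minimum with glmTreat gave 33, 19 and 7 DEGs in DSS against control, DSS + EA against DSS and DSS + EA against control, in place of 50, 32 and 13. A log2 fold change minimum of 1 gave 93, 89 and 41. Taking the 100 most counted loci gave 19, 12 and 8 DEGs and 41, 47 and 18 loci at an adjusted p under 0.05, and the 400 most counted gave 121, 74 and 20 DEGs, with 242 and 226 at an adjusted p under 0.05 in the first 2 comparisons, since the lists differ in size. In DSS + EA against control, no filter gave 22 DEGs, with 13 of them lower in place of 4, and a fit of only the 2 groups gave 55 loci at an adjusted p under 0.05 in place of 31; the cause was not tested. Leaving out DSS + EA 2 and DSS + EA 3, chosen after seeing the data, gave 41 and 2 loci at an adjusted p under 0.05 and 8 DEGs in the last comparison, and leaving out control 2 and DSS 2 gave 3 at an adjusted p under 0.05 there. Leaving out each mouse in turn gave 47 to 52, 29 to 37 and 9 to 18 DEGs and 90 to 119, 87 to 119 and 5 to 39 loci at an adjusted p under 0.05, and share differences of 0.579 to 1.10, -2.01 to -1.74 and -1.28 to -0.763 percentage points. With the replicate number as a block, 50, 30 and 14 loci were DEGs. At an adjusted p under 0.05 there were 106, 97 and 25 loci. Over all rows tested, same-numbered mice deviated from their group means with correlations of -0.159 to 0.103. A correlation over all rows cannot show whether same-numbered mice shared handling, so pairing stayed unsettled. DESeq2 moved the median log2 fold change of all rows to 0.11 in DSS against control and -0.17 in DSS + EA against DSS, and that of the loci was 0.85 and -0.94. Depth limits the less counted loci, since a floor of 3 counts is 0.708 to 1.14 CPM.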
